A study of Homo sapiens with 8 samples.

Results

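The effect of raised TRIB1 was compared between DU145 and PC3, 2 established lines of human prostate cancer. For each gene the change in PC3 was subtracted from the change in DU145, where a change is the TRIB1 group minus the control group of the same line on the scale log2(TPM + 1). TPM is a transcript level corrected for gene length and scaled to a total of 1000000 per library, and on this scale the change of a gene near 1 TPM is understated. A gene entered if its mean reached 1 TPM in at least 1 of the 4 groups, which kept 25982 of the 57905 genes in the table, among them 14803 of 20058 protein-coding genes (73.8%). Just inside that limit lay AC025287.1, with a highest group mean of 1.001 TPM, and just outside it KLHL30, with 0.9998 TPM. All 8 libraries of the series took part, 2 for each line with raised TRIB1 and 2 for its control. Control cells had received a lentivirus with a blank vector and TRIB1 cells a lentivirus that overexpresses TRIB1. The labels name no promoter, no selection and no clone, and give no time after infection. Library descriptions carry the word PRE in DU145 and yong.pre in PC3, and what these mark is not stated. Nor do the labels say whether replicates were separate cultures, so the p-values below rest on the spread among these libraries alone, and that spread may be technical.

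TRIB1 is a pseudokinase of the Tribbles family. It holds substrates against the ubiquitin ligase COP1, and the best known of them are transcription factors of the C/EBP family, which are then degraded. C/EBP factors act beside NF-κB on the promoters of cytokine and acute phase genes, and interferon-stimulated genes are driven mainly by STAT and IRF factors. DU145 was grown from a brain metastasis and PC3 from a bone metastasis of prostate cancer.

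TRIB1 itself (ENSG00000173334, chromosome 8) checked the labels. It stood at 10.1 and 7.94 TPM in the DU145 controls against 69.4 and 62.3 TPM in the DU145 TRIB1 libraries, and at 45.1 and 50.8 TPM against 241 and 245 TPM in PC3. The PC3 controls thus lay between the DU145 groups, nearer to the DU145 TRIB1 libraries. The changes of the lines differed by 0.43 ± 0.17 (log2 ± SE; 95% interval 0.002 to 0.85; adjusted p = 0.192, limma), which did not pass. Depth is unknown, since TPM keeps no totals, and 30398 to 31694 genes were above 0 per library. The lines were told apart by STAT3, at 96.9 to 142.8 TPM in DU145 and 0.127 to 0.502 TPM in PC3. KLK3, KRT5, KRT14 and TP63 were under 1 TPM in all 8 libraries, while KRT8 and KRT18 were abundant and 8 to 11 of 15 prostate lineage genes reached 1 TPM in each library. The second DU145 TRIB1 library stood apart on the second principal component, at -61.67 where the other 3 DU145 libraries lay at 21.53 to 24.9, and 86.17% of its TPM lay in protein-coding genes against 88.73% to 90.59% in the other 7. Counts are therefore also given without it.

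The difference of the changes was called for 1330 genes (5.12% of those tested), where a call needs both an adjusted p below 0.05 and a log2 difference beyond 1 in either direction. The DU145 change was the lower of the pair for 783 of them (3.01%) and the higher for 547 (2.11%). Without the second DU145 TRIB1 library 1236 genes were called, 619 lower and 617 higher, of which 845 were among the 1330. Over the 25982 genes the changes in the 2 lines had a Pearson r of 0.0059 and a Spearman coefficient of 0.0167. Over 9460 protein-coding genes of at least 5 TPM in every group they had an r of 0.042 and a Spearman coefficient of 0.056, and there the change had an SD of 0.282 in DU145 and 0.453 in PC3. These correlations run across genes, which are not independent. In DU145 185 genes rose (0.712%) and 522 fell (2.01%) at an adjusted p below 0.05, and in PC3 1992 rose (7.67%) and 2423 fell (9.33%). Adding the fold, 290 genes were called in DU145 (1.12%) and 1350 in PC3 (5.2%), and 55 in both, which is 18.97% of the DU145 list, against the 5.2% of all genes called in PC3, and 4.07% of the PC3 list. In 1 direction 28 were called in both lines, 9.66% of the DU145 list and 2.07% of the PC3 list, and in opposite directions 27, 9.31% and 2.0%.

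The called differences were sorted by what each line did. In 131 genes (0.504% of those tested) both lines changed at an adjusted p below 0.05 and in opposite directions. In 128 (0.493%) the change was called in DU145 while PC3 moved by less than 0.5 and did not pass, and in 600 (2.31%) the reverse held. These are named DU145-restricted and PC3-restricted below, and in each of them the difference itself passed the test. A change in 1 line alone is meant in this sense, and a smaller change in the other line may remain. In 13 both lines changed in 1 direction to unequal extent, and the remaining 458 belonged to none of these. Of the 4 classes, 115, 75, 465 and 13 genes were protein-coding, and the descriptions below keep to these. The sizes of the classes depend on single libraries more than the count of differences does. Without the second DU145 TRIB1 library 64 genes were of opposite change, 333 were DU145-restricted and 415 PC3-restricted. Without the first, 419 were DU145-restricted, and 326 of these were higher in DU145, against 42 of 128 with all libraries.

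**Figure D1:**
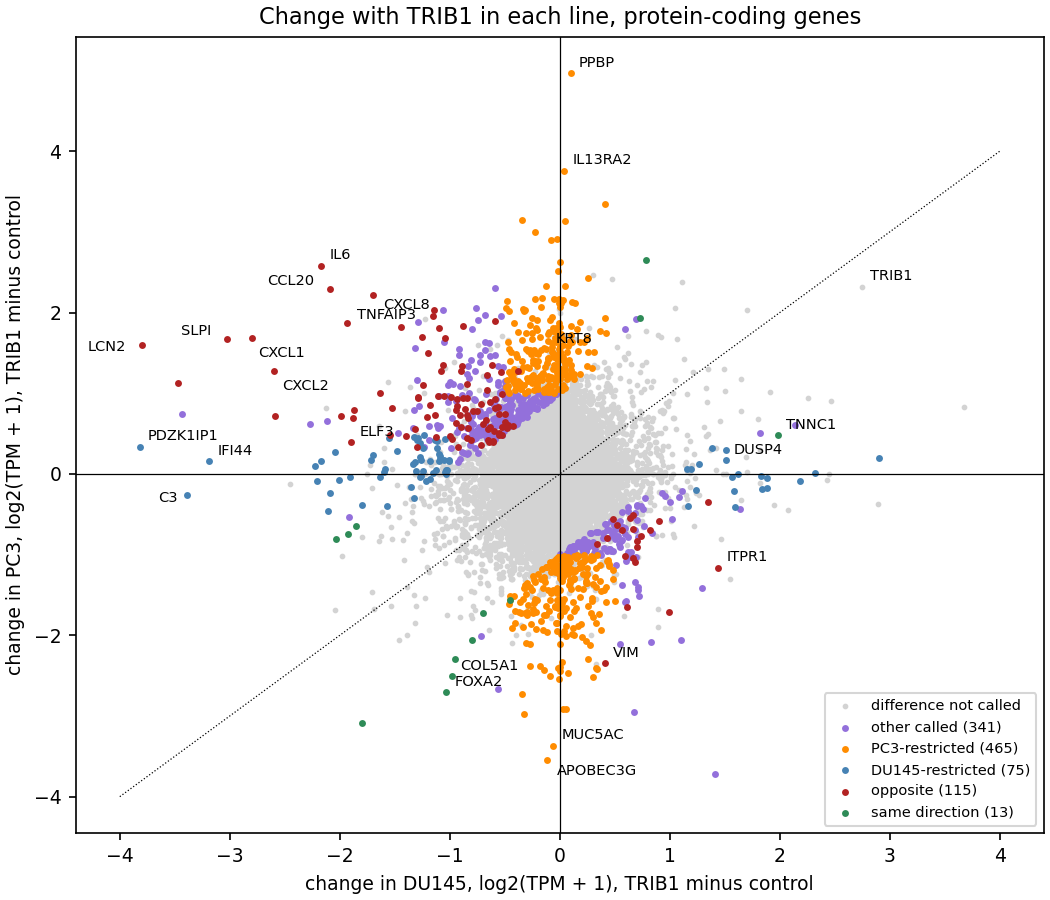
Change with TRIB1 on the log2(TPM + 1) scale in DU145 (horizontal) and in PC3 (vertical), 1 point per protein-coding gene tested, coloured by class, with the number of genes in each. IL6, LCN2, SLPI and the CXCL chemokines lie at the upper left, lower in DU145 and higher in PC3, and few coloured points lie along the dotted line of equal change.

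Cytokine and chemokine genes were among those with large opposite changes. Of the 115 protein-coding genes of opposite change, 94 fell in DU145 and rose in PC3, and 20 of these 94 did so by more than 1 in each line. IL6 (ENSG00000136244, chromosome 7), a cytokine that signals through STAT3, stood at 6.35 and 5.39 TPM in the DU145 controls and 0.582 and 0.472 TPM with TRIB1, but at 62.4 and 73.8 TPM in the PC3 controls and 419 and 403 TPM with TRIB1. All 4 groups were apart, PC3 highest with TRIB1 and DU145 lowest with TRIB1. IL6 changed by -2.17 ± 0.12 in DU145 and 2.58 ± 0.12 in PC3, a difference of -4.75 ± 0.16 (log2 ± SE; 95% interval -5.15 to -4.34; adjusted p = 0.000931).

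CXCL8 (ENSG00000169429, chromosome 4), the neutrophil attractant interleukin-8, was 22.99 and 18.9 TPM in the DU145 controls and 7.13 and 4.58 TPM with TRIB1. In PC3 it was 416 and 363 TPM in the controls and 1861 and 1778 TPM with TRIB1. The libraries of no 2 groups overlapped, and the changes differed by -3.92 ± 0.27 (adjusted p = 0.00285). The related neutrophil attractants CXCL1, CXCL2 and CXCL3 followed the same order. CXCL1 went from 30.9 and 23.4 to 3.09 and 2.96 TPM in DU145 and from 1008 and 1064 to 3355 and 3312 TPM in PC3, and its changes differed by -4.48 ± 0.17 (adjusted p = 0.00119). CXCL2 went from 17.96 and 18.1 to 2.15 and 2.15 TPM in DU145 and from 57.4 and 57.6 to 145 and 135 TPM in PC3, a difference of -3.87 ± 0.10 (adjusted p = 0.000259). For CXCL3 the difference was -3.27 ± 0.21 (adjusted p = 0.00238). CXCL1, CXCL2 and CXCL3 are close in sequence and reads may have been shared between them.

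CCL20, the ligand of CCR6 on lymphocytes and dendritic cells, is a case with like levels in the controls. It stood at 9.52 and 7.35 TPM in the DU145 controls and 8.05 and 6.201 TPM in the PC3 controls, whose difference of -0.21 ± 0.17 did not pass (adjusted p = 0.337). With TRIB1 it was 1.21 and 1.19 TPM in DU145 and 37.3 and 39.6 TPM in PC3, and the changes differed by -4.38 ± 0.23 (95% interval -4.95 to -3.81; adjusted p = 0.00192). The control libraries of the lines overlapped while the TRIB1 libraries lay far apart.

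Promoter sequences of 3 of these genes are shown because the genes moved together in opposite ways, and that of IFI44 because it moved in DU145 alone. Each is the RefSeq window on GRCh38.p14 from 250 bases before to 50 after the start, 5′ to 3′ on the gene's strand (plus for all 4), with motif matches in capitals.
IL6, chr7:22726950-22727249: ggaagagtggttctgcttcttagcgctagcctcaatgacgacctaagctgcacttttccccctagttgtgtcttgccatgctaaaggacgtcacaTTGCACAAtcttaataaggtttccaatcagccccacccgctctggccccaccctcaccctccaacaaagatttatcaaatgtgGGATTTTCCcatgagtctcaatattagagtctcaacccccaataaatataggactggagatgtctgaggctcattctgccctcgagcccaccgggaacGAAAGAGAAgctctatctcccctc
CXCL8, chr4:73740319-73740618: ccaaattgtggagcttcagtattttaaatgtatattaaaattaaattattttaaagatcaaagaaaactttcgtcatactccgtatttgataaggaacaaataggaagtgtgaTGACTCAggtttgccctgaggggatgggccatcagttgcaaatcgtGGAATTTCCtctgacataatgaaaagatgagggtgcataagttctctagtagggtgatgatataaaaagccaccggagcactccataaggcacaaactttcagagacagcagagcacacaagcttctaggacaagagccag
LCN2, chr9:128149203-128149502: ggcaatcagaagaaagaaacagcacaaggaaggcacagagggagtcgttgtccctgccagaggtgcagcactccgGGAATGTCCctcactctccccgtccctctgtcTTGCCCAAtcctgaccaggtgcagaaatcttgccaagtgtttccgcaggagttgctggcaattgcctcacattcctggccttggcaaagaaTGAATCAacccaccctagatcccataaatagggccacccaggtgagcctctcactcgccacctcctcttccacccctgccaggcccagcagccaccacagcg
IFI44, chr1:78649539-78649838: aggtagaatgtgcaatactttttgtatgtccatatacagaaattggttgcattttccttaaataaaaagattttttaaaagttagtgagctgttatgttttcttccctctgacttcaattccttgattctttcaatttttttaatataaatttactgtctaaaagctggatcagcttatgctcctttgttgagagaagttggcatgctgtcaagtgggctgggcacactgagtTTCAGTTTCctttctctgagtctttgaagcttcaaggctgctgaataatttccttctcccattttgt
The letters searched on both strands were GGANNTTCC for NF-κB, TTGCNNAA for C/EBP, TGANTCA for AP-1 and GAAANNGAA for the interferon response element. IL6 held GGATTTTCC 72 bases before the start, TTGCACAA 155 before it and GAAAGAGAA 26 after it. CXCL8 held GGAATTTCC at 91 before and TGACTCA at 137, and LCN2 held GGAATGTCC, the NF-κB letters on the other strand, at 175, TTGCCCAA at 143 and TGAATCA at 52. IFI44 held TTCAGTTTC, the interferon element on the other strand, 17 bases before the start, and a second IFI44 window held the same letters 59 bases before its own start. Windows of CXCL2, TNFAIP3 and OAS1 were searched too and are not printed. CXCL2 held NF-κB letters at 77, C/EBP letters at 188 and interferon letters at 217, and TNFAIP3 held NF-κB letters at 67. OAS1 held C/EBP letters at 57 and no match to the interferon letters searched. Variants of the letters, interferon elements of other spacing among them, were not searched, so their absence is not shown. The CXCL8 window holds ttgcaaat shortly before its NF-κB match, which the C/EBP letters searched miss by the last base. Among all 35116 windows the letters searched occurred in 4.565% for NF-κB, 10.46% for C/EBP, 7.709% for AP-1 and 8.107% for the interferon element. Of the 11729 protein-coding genes tested that had a window, 6.241%, 10.39%, 7.426% and 8.892% held them, in the same order. A match is a description of the sequence and shows no binding. A count over the whole class is not given. Windows were at hand for 72 of the 94 genes (76.6%), against 79.23% of all protein-coding genes tested. The motifs and the 4 genes were chosen after the values were seen.

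**Figure D2:**
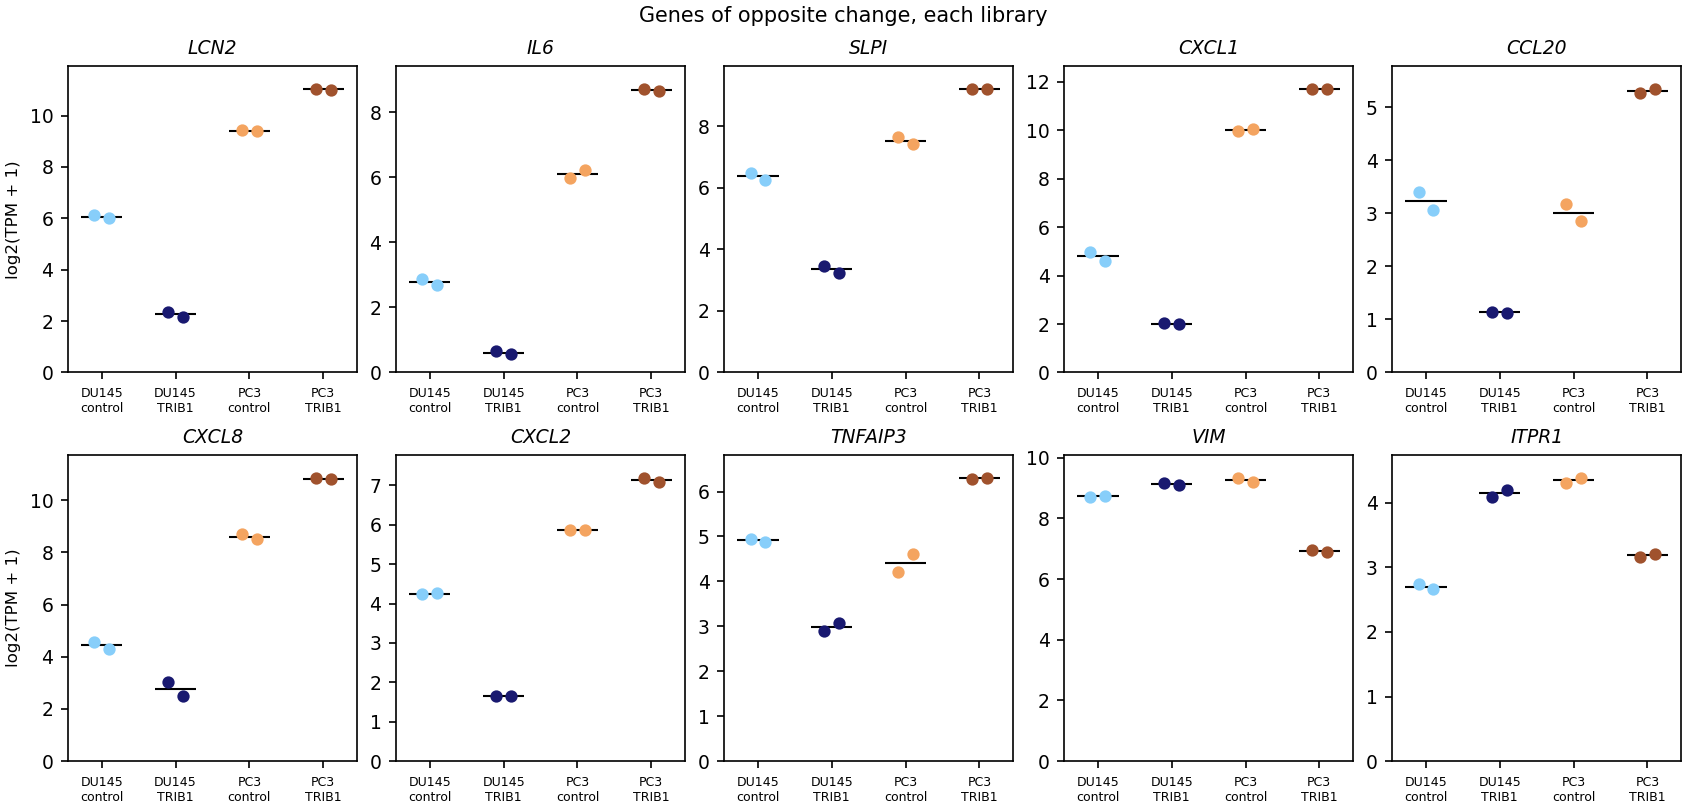
Level of 10 genes of opposite change as log2(TPM + 1), each point a library and each bar the mean of the 2 libraries of a group. LCN2 to TNFAIP3 fell in DU145 and rose in PC3, and VIM and ITPR1 did the reverse.

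LCN2, SLPI, PI3 and SAA1, genes of mucosal defence and the acute phase, changed in the same directions as these cytokines. LCN2 (ENSG00000148346, chromosome 9), which binds bacterial siderophores, had the largest difference of the named genes. It stood at 69.3 and 62.8 TPM in the DU145 controls, 4.101 and 3.51 TPM in DU145 with TRIB1, 698 and 665 TPM in the PC3 controls and 2099 and 2043 TPM in PC3 with TRIB1. The changes of -3.803 ± 0.08 and 1.602 ± 0.08 differed by -5.405 ± 0.11 (log2 ± SE; 95% interval -5.69 to -5.12; adjusted p = 0.000211), and replicates within each group were far closer than the groups. SLPI, a protease inhibitor of mucosal fluids, went from 89.1 and 74.7 to 9.95 and 8.42 TPM in DU145 and from 198 and 171 to 588 and 590.4 TPM in PC3, a difference of -4.698 ± 0.17 (adjusted p = 0.00107). PI3, the elastase inhibitor elafin, was scarce in DU145, at 6.69 and 4.403 TPM falling to 1.94 and 1.49 TPM, and abundant in PC3, at 2107 and 2288 TPM rising to 6939 and 7277 TPM. Its changes differed by -2.95 ± 0.25 (adjusted p = 0.00452). SAA1, serum amyloid A of the acute phase, had like control levels in the lines, 46.8 and 37.1 TPM in DU145 and 34.1 and 26.2 TPM in PC3. It fell to 6.13 and 6.09 TPM in DU145 and rose to 46.2 and 53.5 TPM in PC3, a difference of -3.299 ± 0.24 (adjusted p = 0.00298), and it shares much of its sequence with SAA2.

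Inhibitors and mediators of NF-κB signalling were also split. TNFAIP3, a ubiquitin-editing enzyme that shuts NF-κB signalling off, stood at 29.7 and 28.6 TPM in the DU145 controls and 17.6 and 23.6 TPM in the PC3 controls. TRIB1 libraries held 6.43 and 7.37 TPM in DU145 and 76.4 and 78.3 TPM in PC3, so its order between the lines turned over. The changes differed by -3.81 ± 0.20 (adjusted p = 0.00192). BIRC3, a ubiquitin ligase at the TNF receptor, went from 85.1 and 85.4 to 38.4 and 38.2 TPM in DU145 and from 21.3 and 21.1 to 36.98 and 34.8 TPM in PC3, which left the lines at near the same level. SOD2, the mitochondrial superoxide dismutase, fell by 1.54 in DU145 and rose by 0.48 in PC3, a difference of -2.03 ± 0.12 (adjusted p = 0.00208). IRAK2, a kinase below the interleukin-1 receptor, fell in DU145 by 0.84 and changed by 0.25 ± 0.08 in PC3, where it did not pass (adjusted p = 0.102), and the difference was -1.09 ± 0.12 (adjusted p = 0.00803).

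Epithelial, interferon and matrix genes were among the other opposite ones. ELF3, an epithelial transcription factor of the ETS family, went from 166 and 142 to 41.8 and 39.2 TPM in DU145 and from 74.5 and 77.96 to 103 and 98.03 TPM in PC3, a difference of -2.296 ± 0.12 (adjusted p = 0.00192). CLDN7, a tight junction claudin, fell from 9.59 and 10.1 to 6.63 and 6.34 TPM in DU145 and rose from 52.6 and 51.7 to 124 and 129 TPM in PC3. OASL, an interferon-stimulated relative of the oligoadenylate synthetases, fell from 13.03 and 14.01 to 3.68 and 3.66 TPM and rose from 5.91 and 7.05 to 14.2 and 13.8 TPM. The RNA sensor gene IFIH1 showed a like difference, -2.67 ± 0.18 (adjusted p = 0.00278), against -2.64 ± 0.16 for OASL (adjusted p = 0.00231). FN1, fibronectin, differed by -1.73 ± 0.16 (adjusted p = 0.00567), falling in DU145 and rising in PC3. GADD45A, a stress and growth arrest gene, differed by -1.1001 ± 0.13 (adjusted p = 0.00945).

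The other 21 protein-coding genes of opposite change went up in DU145 and down in PC3. Falls also prevailed in DU145 over all 14803 protein-coding genes tested, with 450 falling and 135 rising, against 2010 and 1668 in PC3. Among the 21, 1 gene, ITPR1, changed by more than 1 in each line. ITPR1, a calcium channel of the endoplasmic reticulum, went from 5.68 and 5.33 to 15.9 and 17.4 TPM in DU145 and from 18.8 and 19.9 to 7.94 and 8.25 TPM in PC3, so the 2 lines traded places. Its changes differed by 2.6002 ± 0.13 (log2 ± SE; 95% interval 2.27 to 2.93; adjusted p = 0.00192). VIM, the intermediate filament of mesenchymal cells, was at 414 and 429.7 TPM in the DU145 controls and 647 and 589 TPM in the PC3 controls. It rose modestly to 577 and 543 TPM in DU145 and fell to 122 and 119 TPM in PC3, and most of the difference of 2.75 ± 0.09 (adjusted p = 0.000834) lay in PC3. PALM3, a paralemmin, differed by 2.698 ± 0.20 (adjusted p = 0.00307), with 6.36 and 8.39 and then 15.5 and 15.6 TPM in DU145 and 15.2 and 14.1 and then 3.69 and 3.89 TPM in PC3.

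Of these genes SPRY4 and ETV4 act in or below growth factor signalling. SPRY4, a feedback inhibitor of receptor tyrosine kinases, went from 3.41 and 3.801 to 6.22 and 5.86 TPM in DU145 and from 52.2 and 51.9 to 16.3 and 15.6 TPM in PC3, a difference of 2.26 ± 0.13 (adjusted p = 0.00193). ETV4, an ETS factor induced by ERK signalling, went from 32.9 and 35.9 to 62.9 and 53.5 TPM and from 167 and 186 to 107 and 99.1 TPM. FSCN1, the actin-bundling protein fascin, rose in DU145 by 0.69 and fell in PC3 by 1.09. CCN2, a matrix-associated target of YAP, differed by 1.22 ± 0.11 (adjusted p = 0.00497). RDH10 (a retinol dehydrogenase), SPTB (a spectrin), CREB3L2 (a membrane-bound transcription factor), NID2 (nidogen of basement membranes), ADAL and the calcium-binding S100A4 had differences of 1.18 to 1.703, with adjusted p from 0.00346 to 0.0123. The call of S100A4 ended with 1 of the 8 libraries left out, the first DU145 control. Calls of the other named genes of opposite change held in all 8 such fits. These calls concern the difference alone, while the opposite class also needs each line to pass, and its size was less stable. In DU145 the change passed narrowly for ADAL (adjusted p = 0.0447), CREB3L2 (adjusted p = 0.0433), VIM (adjusted p = 0.0369) and SPTB (adjusted p = 0.0367).

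Levels in the controls did not follow 1 pattern among the opposite genes. Of the 94 that fell in DU145 and rose in PC3, the PC3 control was higher at an adjusted p below 0.05 for 31 and the DU145 control for 51, and 12 did not pass. Their median control level was 27.3 TPM in DU145 and 20.2 TPM in PC3. Of the 21 that went the other way, the PC3 control was higher for 15, the DU145 control for 4, and 2 did not pass, with medians of 25.0 and 26.5 TPM. The same control libraries enter the comparison of controls and the difference of the changes, so these counts are a description. The PC3 controls were far above the DU145 controls for CXCL1, by 5.22 ± 0.12, and CXCL8, by 4.16 ± 0.19 on the log2 scale, which was not so for CCL20. TNFAIP3, BIRC3, ELF3 and OASL began higher in DU145, with control differences (PC3 minus DU145) of -0.496, -1.96, -1.004 and -0.96.

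With all 8 libraries DU145-restricted genes were fewer than PC3-restricted ones and mostly fell, and both statements rest on single libraries. Over all gene types 86 of 128 were lower in DU145, but 243 of 333 were higher without the second DU145 TRIB1 library and 326 of 419 without the first. Without the first DU145 control 339 were DU145-restricted against 337 PC3-restricted, and without the second 401 against 338. Of the 75 that are protein-coding, 56 fell and 19 rose, and 46 of the 75 stood at 5 TPM or more in the PC3 controls, so that a change there was measurable. The interferon-stimulated gene IFI44 was 12.3 and 16.1 TPM in the DU145 controls and 0.542 and 0.783 TPM with TRIB1, but 35.6 and 37.04 TPM in the PC3 controls and 44.3 and 37.5 TPM with TRIB1. DU145 libraries with TRIB1 were thus far below every other library. The changes of -3.18 ± 0.16 and 0.16 ± 0.16 differed by -3.35 ± 0.22 (95% interval -3.898 to -2.795; adjusted p = 0.00278).

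OAS1, an oligoadenylate synthetase of the antiviral response, went from 16.3 and 14.9 to 3.204 and 2.07 TPM in DU145 and from 30.6 and 27.3 to 27.7 and 26.5 TPM in PC3, a difference of -2.12 ± 0.23 (adjusted p = 0.00803). IFITM3, which blocks entry of viruses, fell from 131 and 126 to 50.2 and 50.6 TPM in DU145 against 320.1 and 349 and 356 and 370.3 TPM in PC3, a difference of -1.45 ± 0.08 (adjusted p = 0.00208). It belongs to a family of near-identical genes. In both genes the PC3 libraries stood above the DU145 controls whether or not TRIB1 was raised. PTGES, which makes prostaglandin E, was higher in the DU145 controls, at 103 and 97.2 TPM, than in the PC3 controls, at 43.3 and 41.4 TPM. With TRIB1 it was 24.7 and 23.6 TPM in DU145 and 39.8 and 40.5 TPM in PC3, which turned that order round (difference -1.93 ± 0.09, adjusted p = 0.00155).

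Other falls in DU145 alone were those of C3, PTK2B and IER3. The complement gene C3 was 41.3 and 22.95 TPM in the DU145 controls, 1.47 and 2.75 TPM with TRIB1, 35.9 and 33.6 TPM in the PC3 controls and 35.2 and 23.4 TPM in PC3 with TRIB1. The DU145 control libraries of C3 lay wide apart, and the difference of -3.12 ± 0.49 (adjusted p = 0.0198) lost its call in 6 of the 8 fits that leave a library out (adjusted p up to 0.0758). PTK2B, a kinase related to focal adhesion kinase, differed by -1.996 ± 0.23 (adjusted p = 0.00869). In PC3 PTK2B changed by 0.44 ± 0.16, which did not pass (adjusted p = 0.126). IER3, an immediate early gene that NF-κB induces, fell from 202 and 179.7 to 84.9 and 75.4 TPM in DU145 and stood at 800.3 and 809 and 836 and 817 TPM in PC3.

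Rises in DU145 alone included that of HBEGF, a growth factor gene. HBEGF, a ligand of the EGF receptor, went from 18.6 and 18.2 to 45.7 and 43.9 TPM in DU145 and from 35.05 and 33.4 to 29.96 and 29.3 TPM in PC3, so that DU145 passed the level of PC3 (difference 1.44 ± 0.09, adjusted p = 0.00238). DUSP4, a phosphatase that turns ERK off, rose from 1.06 and 0.895 to 4.71 and 4.53 TPM in DU145 and was 117 and 128 and 139 and 137 TPM in PC3. It stayed far below PC3 in spite of its rise, and its changes differed by 1.34 ± 0.12 (adjusted p = 0.00499). SELENBP1, a selenium-binding protein gene, went from 3.36 and 3.704 to 15.04 and 10.7 TPM in DU145, a difference of 2.003 ± 0.22 from PC3 (adjusted p = 0.00852). In PC3 it changed by -0.41 ± 0.16, which did not pass (adjusted p = 0.147). MATN2, a matrilin, and NANOS3, a germ cell RNA-binding protein, differed by 1.14 ± 0.16 and 1.098 ± 0.22, and lost their calls in 3 and 7 of the 8 fits that leave a library out (adjusted p up to 0.0631 and 0.119).

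For 17 DU145-restricted protein-coding genes both PC3 groups were under 1 TPM, and a fall in PC3 could not be seen. PDZK1IP1, a small membrane protein of epithelia, was the steepest, from 83.6 and 70.8 to 5.498 and 3.69 TPM in DU145 against 0.4804 and 0.137 and 0.8304 and 0.469 TPM in PC3. WFDC2, a secreted protein of the whey acidic family, went from 24.9 and 23.3 to 4.64 and 5.21 TPM in DU145 and was listed at 0 in 3 of the 4 PC3 libraries. HLA-DPA1, a chain of class II antigen presentation, went from 24.7 and 22.8 to 7.89 and 10.4 TPM in DU145. In PC3 it was 0.357 and 0.345 TPM in the controls and 0.778 and 0.834 TPM with TRIB1. Of these 3, WFDC2 lost its call in 5 and HLA-DPA1 in 1 of the fits that leave a library out, HLA-DPA1 without the first DU145 control (adjusted p up to 0.0693 and 0.0541). ALPG, a germ cell alkaline phosphatase close to ALPP, rose from 4.24 and 3.85 to 18.2 and 17.2 TPM in DU145, and the phosphatase gene DUSP13 and the metalloprotease gene ADAMTS8 rose by 1.88 and 1.83, all 3 with under 1 TPM in PC3.

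**Figure D3:**
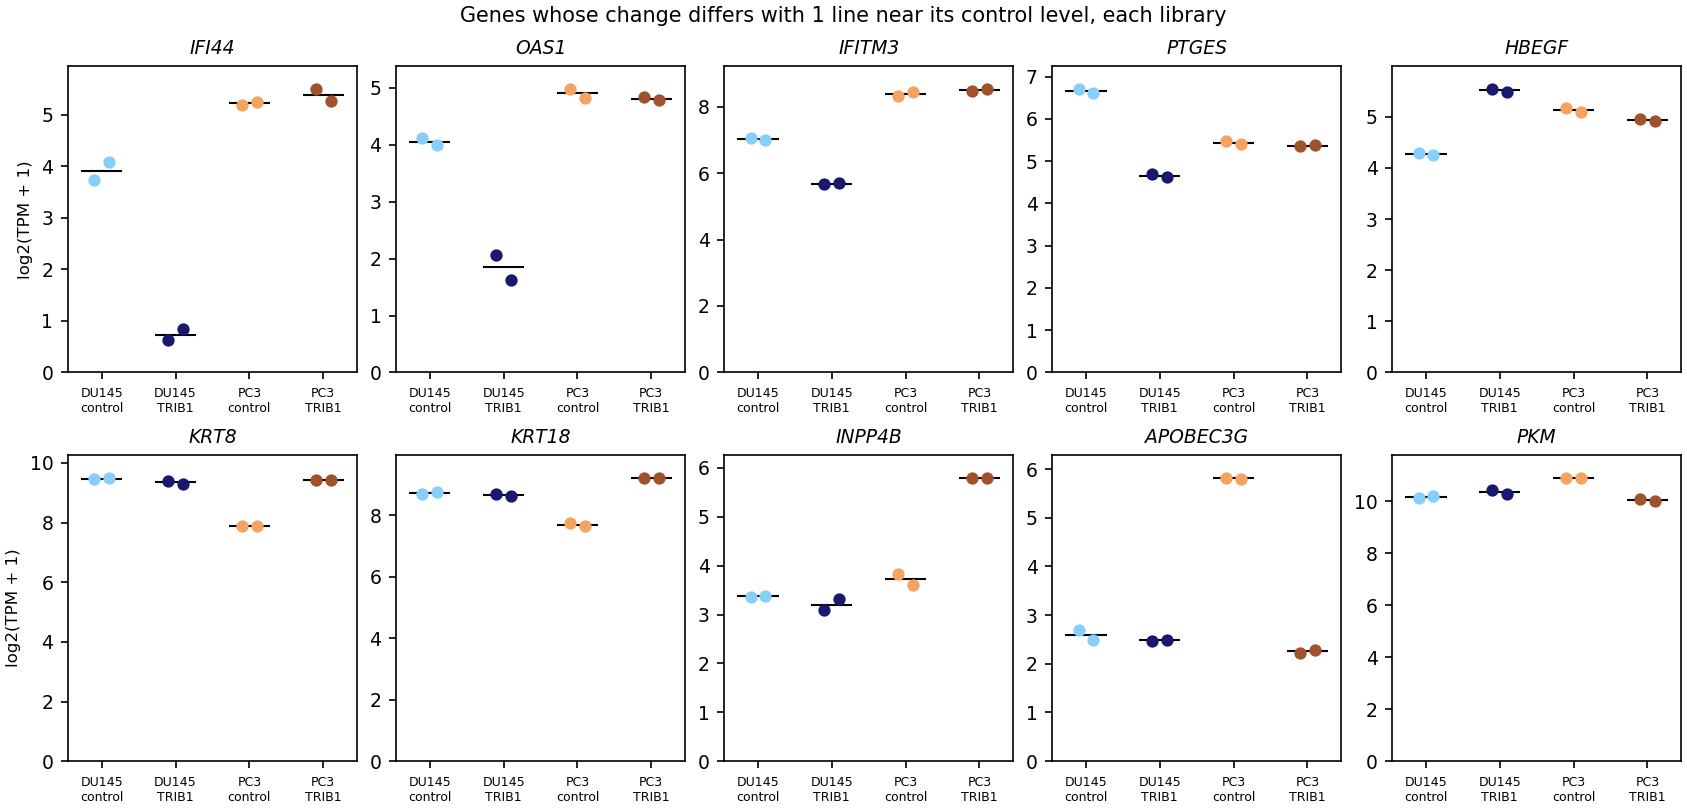
Level of 10 genes as log2(TPM + 1), each point a library and each bar the mean of the 2 libraries of a group. The first 5 changed in DU145 with PC3 near its control level, KRT8 to APOBEC3G changed in PC3 with DU145 near its control level, and PKM belongs to no class.

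With all 8 libraries PC3-restricted genes were the largest class, with 229 protein-coding genes up and 236 down. That near-even split also rests on single libraries. Over all gene types 315 of 600 rose in PC3, but 449 of 654 did so without the first PC3 TRIB1 library and 476 of 661 without the second. Without the first PC3 control 351 of 912 rose, and without the second 291 of 699. Of the 465 protein-coding genes, DU145 controls were at 5 TPM or more for 267, and both DU145 groups were under 1 TPM for 127. Keratins of simple epithelia were among the genes that rose. KRT8 was 698 and 725 TPM in the DU145 controls and 671 and 630.03 TPM with TRIB1, and went from 233 and 236 to 691 and 679.8 TPM in PC3. KRT18, its filament partner, was 413 and 436 and 414 and 392 TPM in DU145 and went from 216 and 199 to 599.8 and 590.5 TPM in PC3. With TRIB1, PC3 reached the KRT8 level of DU145 and passed its KRT18 level. The changes differed by -1.67 ± 0.07 for KRT8 (adjusted p = 0.00132) and -1.59 ± 0.09 for KRT18 (adjusted p = 0.00192). The listed models of KRT8 and KRT18 overlap, so reads may have been shared.

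INPP4B, ATF3, OXTR, SLC6A11 and TGFB2 rose in PC3 alone as well. INPP4B, a phosphatase of phosphoinositides, was 9.298 and 9.36 and 7.51 and 8.94 TPM in DU145 without and with TRIB1, and 13.3 and 11.2 and 54.7 and 54.6 TPM in PC3. The difference was -2.24 ± 0.17 (95% interval -2.65 to -1.83; adjusted p = 0.00317). ATF3, a stress-induced transcription factor, went from 25.2 and 26.3 to 97.8 and 92.2 TPM in PC3 against 15.5 and 14.9 and 13.1 and 11.8 TPM in DU145 (difference -2.11 ± 0.11, adjusted p = 0.00192). OXTR, the oxytocin receptor, and SLC6A11, a GABA transporter, had control levels that did not differ past the test between the lines, and their changes differed by -2.18 ± 0.27 and -2.28 ± 0.19 (adjusted p = 0.0107 and 0.00443). TGFB2, a TGF-β ligand, was another with like controls, 24.03 and 25.2 and 22.8 and 20.1 TPM, and reached 58.1 and 57.8 TPM in PC3 against 20.997 and 17.5 TPM in DU145 with TRIB1.

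Some rises moved PC3 toward the level that DU145 held. EFEMP1, a fibulin of the matrix, was 86.3 and 84.5 and 83.2 and 81.4 TPM in DU145 and went from 5.96 and 4.71 to 29.1 and 25.5 TPM in PC3. ZNF677, a zinc finger gene, was 25.8 and 26.7 and 18.02 and 19.6 TPM in DU145 and went from 6.85 and 5.43 to 29.4 and 26.3 TPM in PC3. Both stood higher in the DU145 controls (PC3 minus DU145 -3.78 and -1.94), and the changes differed by -2.21 ± 0.16 and -2.48 ± 0.17 (adjusted p = 0.00317 and 0.00293). STARD4 (sterol transport) and HMGCS1 (an early enzyme of cholesterol synthesis) had differences of -1.67 ± 0.18 and -1.05 ± 0.13, and for HMGCS1 the call ended in 2 of the 8 fits that leave a library out, where the absolute difference fell to 1 or less. SC5D and MSMO1, sterol enzymes that belonged to no class, differed by -1.29 ± 0.13 and -1.11 ± 0.17. MSMO1 lost its call in 6 such fits and DDIT3, a PC3-restricted stress gene with a difference of -1.11 ± 0.19, in 6.

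Falls in PC3 alone were led by APOBEC3G, a cytidine deaminase that restricts retroviruses. It was 5.4996 and 4.65 and 4.56 and 4.604 TPM in DU145 without and with TRIB1 and fell from 55.7 and 54.6 to 3.68 and 3.897 TPM in PC3. The PC3 controls stood above all 6 other libraries, which lay near each other, and the changes differed by 3.43 ± 0.15 (95% interval 3.06 to 3.804; adjusted p = 0.00132). DGKG, a diacylglycerol kinase, was 4.79 and 6.54 and 6.87 and 7.46 TPM in DU145 and fell from 9.01 and 7.9001 to 0.795 and 0.505 TPM in PC3. SYDE1, a GTPase-activating protein, began at 36.2 and 41.5 TPM in DU145 and 32.3 and 46.6 TPM in PC3, and with TRIB1 was 46.2 and 47.9 and 7.19 and 9.15 TPM. CA12, a carbonic anhydrase, differed by 2.05 ± 0.13 (adjusted p = 0.00238) and COL4A1, a basement membrane collagen, by 1.57 ± 0.12 (adjusted p = 0.00346). The TGF-β binding proteins LTBP1 and LTBP4 differed by 1.72 ± 0.13 and 1.09 ± 0.11. MRC2, a collagen receptor, and DPYSL4 differed by 2.38 ± 0.44 and 2.55 ± 0.38 but lost their calls in 6 and 4 of the fits that leave a library out (adjusted p up to 0.115 and 0.0735).

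A further set was nearly absent from DU145, where a change could hardly have been seen. PPBP, the chemokine CXCL7, was at most 0.298 TPM in the 4 DU145 libraries and went from 1.24 and 1.66 to 75.6 and 75.5 TPM in PC3. IL13RA2, a decoy receptor of interleukin-13, was at most 0.0537 TPM in DU145 and went from 1.08 and 1.52 to 30.4 and 29.6 TPM. C1orf116 and SERPINB2, an inhibitor of plasminogen activators, rose in PC3 by 3.004 and 3.14 and were under 1 TPM in DU145. The squamous and stress keratins KRT17 and KRT6A rose in PC3 from 2.5997 and 3.05 to 26.6 and 28.2 TPM and from 8.61 and 10.4 to 39.7 and 37.3 TPM, both under 1 TPM in DU145, and KRT16, of no class, differed by -2.65 ± 0.23. Keratins 6, 16 and 17 have close copies. MMP1, the interstitial collagenase, rose by 1.24, and KRT6A and MMP1 lost their calls in 2 and 3 of the fits that leave a library out.

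Falls of this kind were those of MUC5AC, a gel-forming mucin, from 70.6 and 79.2 to 6.42 and 6.26 TPM, and of COL6A3, a collagen of the matrix, from 66.7 and 63.5 to 11.9 and 10.1 TPM. PDLIM4, an actin-associated protein, and NTSR1, the neurotensin receptor, changed by -2.92 and -2.91 in PC3, and CDH11, a mesenchymal cadherin, from 180.3 and 162 to 73.9 and 74.4 TPM. All 5 were under 1 TPM in every DU145 library, so no fall could be seen there. S100A14, a calcium-binding protein gene, rose in PC3 instead and was between 1 and 2 TPM in DU145. Its changes differed by -1.06 ± 0.19, a call that ended in 7 of the 8 fits that leave a library out.

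**Figure D4:**
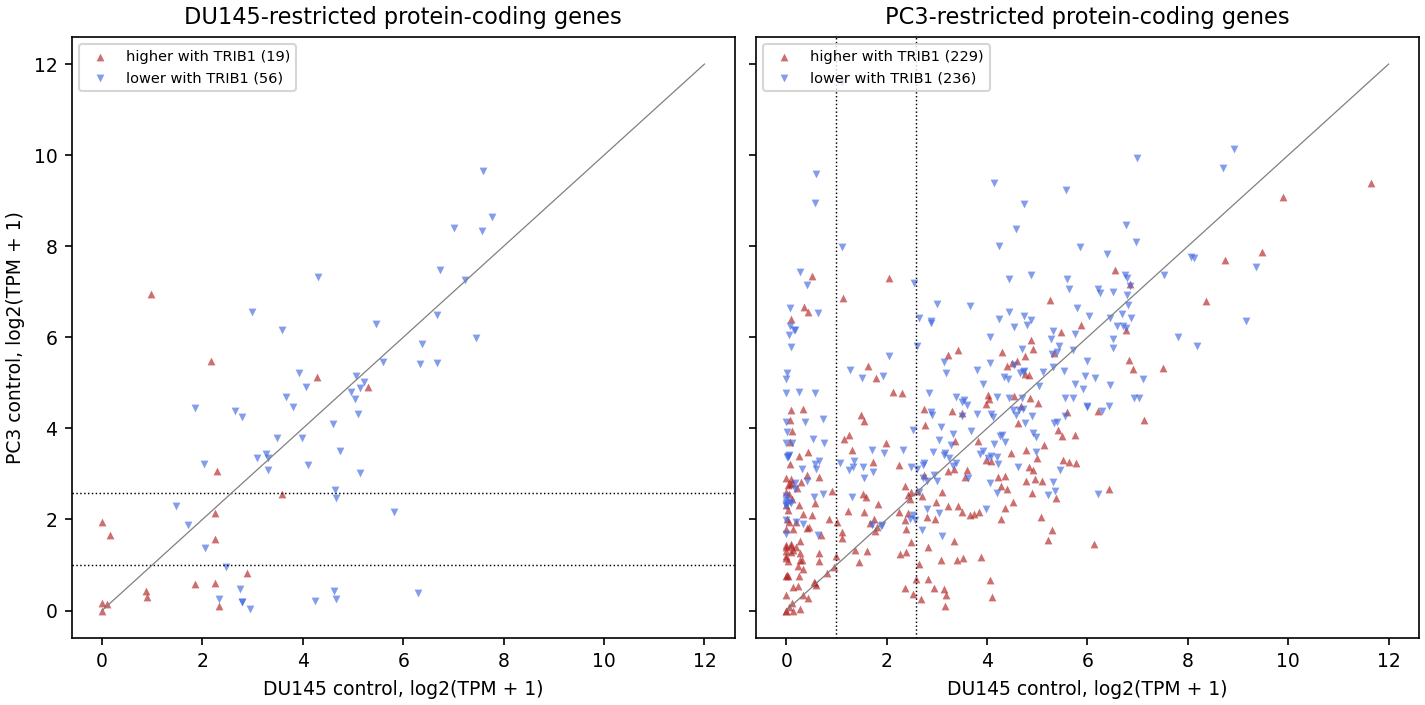
Control level in DU145 (horizontal) and PC3 (vertical) as log2(TPM + 1) for the 75 DU145-restricted and 465 PC3-restricted protein-coding genes, split by direction, with dotted lines at 1 and 5 TPM of the other line. Of the PC3-restricted genes 127 lie at the left edge, under 1 TPM in DU145, and 267 lie at 5 TPM or more.

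Control levels are described for the PC3-restricted genes that DU145 expressed at 5 TPM or more. The 106 that rose had a median control level of 20.7 TPM in DU145 and 8.69 TPM in PC3, and the 161 that fell had 25.4 TPM in DU145 and 30.4 TPM in PC3. Their median changes in PC3 were 1.33 and -1.33. The 41 DU145-restricted falls with at least 5 TPM in PC3 had a median of 25.6 TPM in DU145 and 28.7 TPM in PC3. The change in a line and its control level are computed from 1 set of control libraries, so these medians are a description with no test.

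Few genes changed in 1 direction in both lines with a called difference. ANKRD1, a target of YAP, rose from 98.7 and 107 to 191 and 165 TPM in DU145 and from 0.529 and 0.5202 to 9.78 and 7.57 TPM in PC3. TNNC1, a troponin, rose from 44.8 and 43.4 to 189 and 166 TPM in DU145 and from 0.414 and 0.258 to 0.762 and 0.974 TPM in PC3. All its PC3 libraries lay under 1 TPM, where this scale understates a change, and its call was lost with a pseudocount of 0.1. COL5A1, a fibrillar collagen, changed by -0.98 in DU145 and -2.503 in PC3, and FOXA2, a transcription factor of endoderm, by -1.03 and -2.71. The interferon-stimulated IFI27 changed by -0.95 and -2.29, the reverse of the order of IFI44 and OAS1. P4HA2, a collagen hydroxylase, changed by -0.45 and -1.56. The call of FOXA2 ended in 1 of the 8 fits that leave a library out, without the first PC3 TRIB1 library (adjusted p = 0.0517).

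Of the C/EBP genes CEBPA, CEBPB and CEBPD, 1 had a called difference. CEBPB was 220.4 and 180.4 TPM in the DU145 controls and 97.2 and 73.1 TPM with TRIB1, and 89.99 and 131 TPM in the PC3 controls and 135 and 138 TPM with TRIB1. Neither line passed by itself, with -1.23 ± 0.22 in DU145 (adjusted p = 0.0502) and 0.33 ± 0.22 in PC3 (adjusted p = 0.372). The difference of -1.56 ± 0.31 was called (adjusted p = 0.0343) and lost its call in 7 of the 8 fits that leave a library out (adjusted p up to 0.126). For CEBPA, CEBPD and COP1 the differences were 0.23 ± 0.30, -0.05 ± 0.29 and 0.02 ± 0.28, with 95% intervals of -0.51 to 0.96, -0.77 to 0.67 and -0.67 to 0.71, and did not pass (adjusted p = 0.679, 0.937 and 0.975). COP1 was lower in the PC3 controls, at 3.32 and 5.46 TPM, than in the DU145 controls, at 28.7 and 30.3 TPM. Of 14 measured genes of the C/EBP and Tribbles pathway 2 had a called difference, CEBPB and DDIT3.

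Counts over gene lists follow, read against the 5.12% of all genes and 6.82% of protein-coding genes whose difference was called. The median differences of all and of protein-coding genes were -0.03 and -0.04. Of 14803 protein-coding genes tested, 450 fell and 135 rose in DU145, and 2010 fell and 1668 rose in PC3. Members named in these paragraphs without library values were chosen after their values were seen. Of 19 measured cytokine and chemokine genes known to answer NF-κB, 11 were called lower in DU145 than in PC3 and 1, CSF3, higher, and the median difference was -1.23. In DU145 9 of them fell, and in PC3 10 rose and 4 fell. Of 22 feedback and signalling genes of NF-κB, 9 were called lower (median -0.86), with 10 falling in DU145 and 6 rising and 2 falling in PC3. They include the NF-κB subunit genes NFKB1 and RELB, with differences of -1.04 and -1.06. Of 21 genes of mucosal defence and the acute phase, 12 were called lower and 1, MUC5AC, higher (median -1.72), and 14 fell in DU145 while 7 rose and 4 fell in PC3. The DU145 falls were 8 without the first DU145 control, the PC3 rises 4 without the second PC3 control or either PC3 TRIB1 library, and the PC3 falls 2 without either PC3 TRIB1 library. In the feedback list PC3 rises were 3 without either PC3 TRIB1 library.

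Of 41 interferon-stimulated genes, 17 were called lower in DU145 than in PC3 and 1, IFI27, higher (median -0.97). In DU145 19 fell, and in PC3 6 rose and 6 fell. The DU145 falls were 12 without the first DU145 control and with the replicate number as a block, and 11 without the second DU145 control or either PC3 TRIB1 library. PC3 rises were 2 and 3 without the first and the second PC3 TRIB1 library. The list held 9 DU145-restricted genes and 3 of opposite change, IFIH1, OASL and STAT2. Of 23 genes of antigen presentation, 9 fell in DU145 and 6 in PC3, and 1, the invariant chain gene CD74, had a called difference, -1.598. Its share of 4.35% is near that of all genes.

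Of 32 epithelial genes, 21 were called lower in DU145 than in PC3 (median -1.25). Here the change lay in PC3, where 24 rose, while 1 rose and 2 fell in DU145. Fewer rises passed in PC3, and fewer members were called, when either PC3 TRIB1 library was left out. The list held 13 PC3-restricted genes and 2 of opposite change, ELF3 and CLDN7. Among those restricted to PC3 were CDH1 (E-cadherin), EPCAM and the epithelial regulators GRHL2 and OVOL1, with differences of -1.7001, -1.41, -1.85 and -2.03.

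Of 17 basal keratins and squamous genes, 6 were called lower (median -0.66), with 11 rising in PC3. This count fell to 3 when either DU145 control, the second DU145 TRIB1 library, the second PC3 control or the first PC3 TRIB1 library was left out. Of 19 mesenchymal genes, 6 were called higher and 1, FN1, lower (median 0.47), and 9 fell in PC3 and 2 in DU145. Leaving out either DU145 control left 4 called, and leaving out the second PC3 TRIB1 library left 5 falls in PC3. The keratin list had 7 rises in PC3 without the first PC3 TRIB1 library. Of 30 collagens and laminins, 7 were called higher and 2, LAMA3 among them, lower (median 0.44), with 19 falling in PC3 and 5 in DU145. The PC3 falls were 12 without the first PC3 TRIB1 library and 10 without the second.

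**Figure D5:**
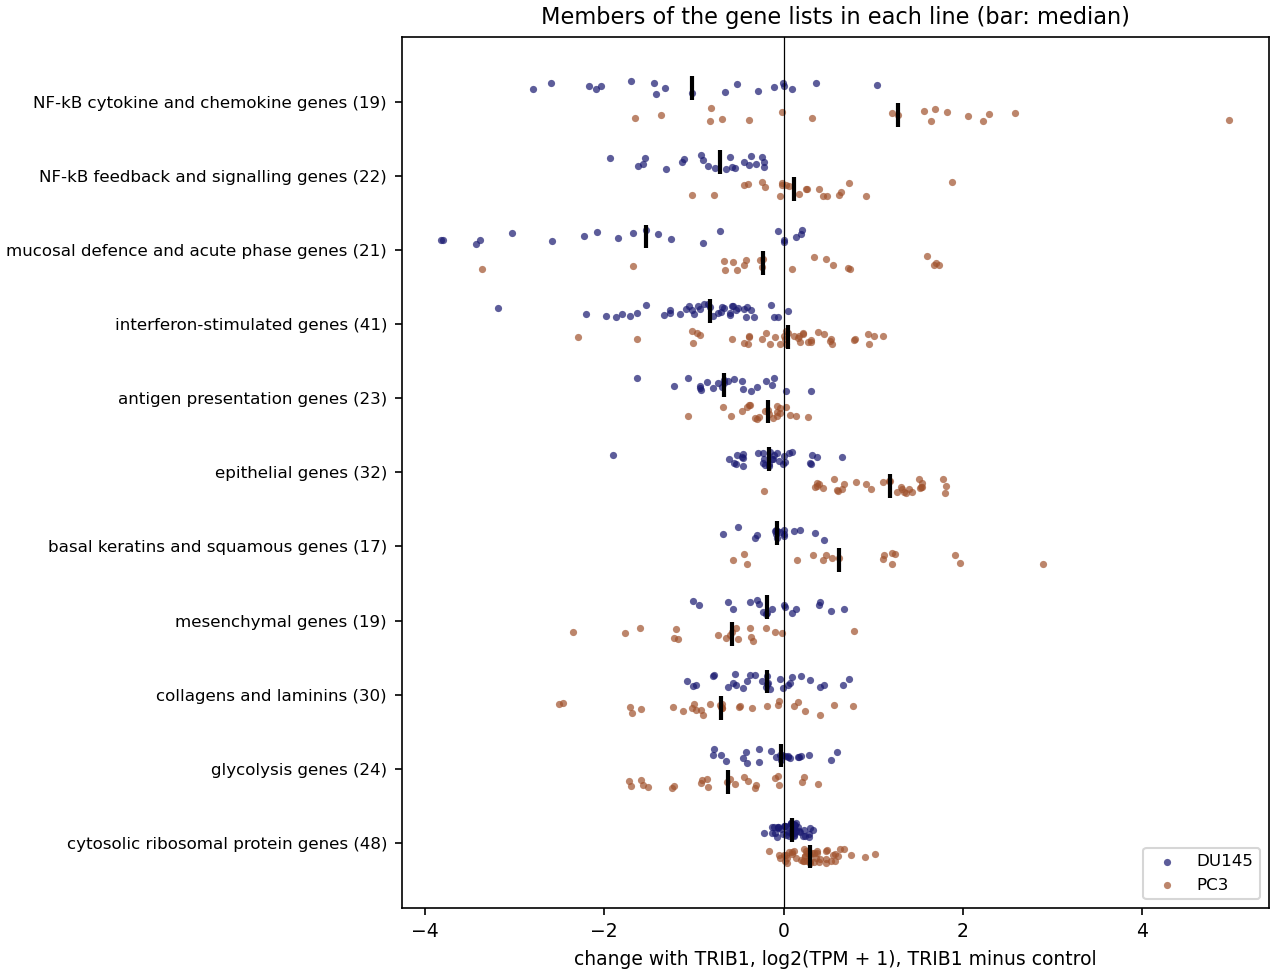
Change with TRIB1 on the log2(TPM + 1) scale for the measured members of 11 gene lists (number in brackets), DU145 above and PC3 below within each list, 1 point per gene and a bar at the median. NF-κB, mucosal and interferon genes lie to the left in DU145, and epithelial genes lie to the right in PC3.

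Of 24 glycolysis genes, 6 were called higher in DU145 than in PC3 (median 0.49), with 18 falling in PC3, where 9.33% of all genes fell, and 5 in DU145, where 2.01% did. The DU145 count was 3 or fewer in each of the 8 fits that leave a library out. PKM, pyruvate kinase, went from 1883 and 1906 to 1072 and 1032 TPM in PC3 against 1112 and 1157 and 1354 and 1246 TPM in DU145, a difference of 1.04 ± 0.08. ALDOC, SLC16A3 (a lactate exporter) and PFKP differed by 2.19 ± 0.28, 1.098 ± 0.15 and 1.48 ± 0.22. The calls of these 4 ended in 1, 1, 5 and 6 of the fits that leave a library out, PKM without the first DU145 TRIB1 library and ALDOC without the first DU145 control. The count of 6 fell to 1 without the first DU145 control, to 2 without the second, the first DU145 TRIB1 or the second PC3 TRIB1 library, and to 3 without the second PC3 control or the first PC3 TRIB1 library. Of 24 hypoxia genes outside glycolysis, 3 were called higher (median 0.18), CA12 and P4HA2 among them, with 13 falling in PC3 and 5 in DU145. The PC3 falls were 8 without the second PC3 TRIB1 library, and the DU145 falls 4 or fewer with any library left out. Of 48 cytosolic ribosomal protein genes, 30 rose in PC3, where the median change was 0.29, and 1, RPS20, had a called difference.

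Of 27 genes of the ATF4 stress response, 1 (VLDLR) was called higher and 2 (ATF3 and DDIT3) lower, a count of 3 that fell to 1 when either PC3 TRIB1 library was left out, and likewise for the second library of each DU145 group. In this list 7 rose in DU145 and 11 in PC3, with median changes of 0.27 and 0.34. The PC3 rises were 6 and 7 without the first and the second PC3 TRIB1 library, and the DU145 rises 6 or fewer with any library left out. The difference of VLDLR, 1.49 ± 0.33, lost its call in 7 of the 8 fits that leave a library out. Of 25 cholesterol synthesis genes 4 were called lower, and 2 without the second PC3 control, and of 32 mitosis genes 1, BUB1B, was called higher. Of 21 genes of ERK feedback and output, 4 (DUSP4, SPRY4, ETV4 and ETV5) were called higher and 1 (IER3) lower. Among 23 YAP and TEAD targets, CCN2 and PTPN14 were called higher and ANKRD1, GADD45A and TGFB2 lower. Among 23 TGF-β targets, those called higher include SMAD6, LTBP1, LTBP4 and CCN2, and TGFB2 and INHBA were called lower. Of 25 proteases and inhibitors of the matrix, 1 was called higher and 2, MMP1 and SERPINB2, lower, a count of 3 that became 5 without the second DU145 control and 1 without the second PC3 TRIB1 library.

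Markers of other cell types were measured as well. Of 4 measured leukocyte markers CD68, also a lysosomal protein of other cells, was called, with an opposite change from 26.1 and 31.7 to 7.197 and 7.04 TPM in DU145 and from 17.5 and 20.8 to 32.7 and 30.3 TPM in PC3. Summed over 8 leukocyte markers, the levels moved with it, at 31.6 to 36.6 TPM in the DU145 controls, 10.3 to 13.7 TPM in DU145 with TRIB1, 21.2 to 25.3 TPM in the PC3 controls and 35.0 to 37.1 TPM in PC3 with TRIB1. CD68 made up most of each sum. Summed endothelial markers were 1.17 to 4.09 TPM per library and summed fibroblast markers 42.6 to 71.5 TPM, mostly COL1A1.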

How the data were processed

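RNA sequencing of 8 libraries was analysed from 1 deposited gene table, whose 8 columns hold TPM, made by the authors and summing to 1000000 each, per the file headers and values. Per the submitters' processing notes, the build was hg38 and the tools were HTSeq, edgeR, DESeq and TopHat2 2.0.14. The sources used here do not give which of them made the TPM, nor the annotation, gene lengths or strand setting. Of 52338 identifiers shared with GENCODE 29, 365 (0.697%) have the listed start, so listed intervals are not printed. Groups and replicate numbers came from the titles.

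Levels were tested as log2(TPM + 1) in R 4.3.3 by limma 3.58.1, with its trend of variance on mean level and 1 fit of 4 group means (4 residual degrees of freedom), with Benjamini-Hochberg adjustment over 25982 genes. Unless another test is named, every adjusted p is from this fit. "Rose" and "fell" mean an adjusted p below 0.05, and "called" adds an absolute log2 over 1. No count test was run, since TPM are not counts and no depth or counting interval can be had. The procedure was also run on simulated data.

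Named were TRIB1, COP1, CEBPA, CEBPB, CEBPD, IL6 and CXCL8. To these a rule added protein-coding genes of at least 5 TPM in a group, whose TRIB1 libraries both lay above or both below the 2 controls in each line called. It took those of opposite change with the largest smaller change and the largest changes restricted to a line, split by level in the other line. It also took those of 1 direction with the largest difference and the members of each list with the smallest p. The 26 lists held 571 genes, 531 of them tested. The members, lists and rule were chosen with earlier results of these data known. Alternatives were the pseudocount, the filter, 2 scalings, protein-coding genes alone, no trend, a replicate block and each library left out, where a lone library of a group is assumed to vary like the others. Some genes, 2 of them chosen by the rule, are not reported here. Promoter windows are from RefSeq (GRCh38.p14). Symbols came from identifiers, and reads of close paralogs, overlapping or antisense genes may have been shared.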

Additional observations from a re-analysis of the deposited data

Results flagged for a closer look

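Changes with TRIB1 differed between the lines for 1330 genes by the test of the difference itself, and for 100 of the 104 named genes. TRIB1, COP1, CEBPA and CEBPD are the 4 that did not pass. Apart from these and CEBPB, IL6 and CXCL8, the named genes were picked from called differences. They were thus bound to pass, and the 100 follows from that choice. Each value below is the log2 change of DU145 with that of PC3 taken off. Among genes of opposite change, those lower in DU145 had differences of LCN2 -5.405, IL6 -4.75, SLPI -4.698, CXCL1 -4.48, CCL20 -4.38, CXCL8 -3.92, CXCL2 -3.87, TNFAIP3 -3.81, SAA1 -3.299, CXCL3 -3.27, PI3 -2.95, IFIH1 -2.67, OASL -2.64, ELF3 -2.296, SOD2 -2.03, BIRC3 -1.87, CLDN7 -1.79, FN1 -1.73 and GADD45A -1.1001. Those higher in DU145 and lower in PC3 had differences of S100A4 1.18, CCN2 1.22, NID2 1.35, ETV4 1.51, CREB3L2 1.51, RDH10 1.53, SPTB 1.61, ADAL 1.703, FSCN1 1.78, SPRY4 2.26, ITPR1 2.6002, PALM3 2.698 and VIM 2.75. Genes that fell in DU145 alone had differences of PDZK1IP1 -4.16, IFI44 -3.35, C3 -3.12, OAS1 -2.12, PTK2B -1.996, PTGES -1.93, WFDC2 -1.84, HLA-DPA1 -1.72, IFITM3 -1.45 and IER3 -1.28. Genes that rose in DU145 alone had differences of NANOS3 1.098, MATN2 1.14, DUSP4 1.34, HBEGF 1.44, ADAMTS8 1.86, ALPG 1.94, SELENBP1 2.003 and DUSP13 2.06. Genes that rose in PC3 alone had differences of PPBP -4.87, IL13RA2 -3.72, C1orf116 -3.23, SERPINB2 -3.09, KRT17 -2.97, ZNF677 -2.48, SLC6A11 -2.28, INPP4B -2.24, EFEMP1 -2.21, OXTR -2.18, ATF3 -2.11, KRT6A -1.997, TGFB2 -1.74, KRT8 -1.67, STARD4 -1.67, KRT18 -1.59, MMP1 -1.23, DDIT3 -1.11, S100A14 -1.06 and HMGCS1 -1.05. Genes that fell in PC3 alone had differences of LTBP4 1.09, SLC16A3 1.098, CDH11 1.34, PFKP 1.48, COL4A1 1.57, LTBP1 1.72, CA12 2.05, MRC2 2.38, SYDE1 2.399, COL6A3 2.53, DPYSL4 2.55, DGKG 2.83, NTSR1 2.95, PDLIM4 2.97, MUC5AC 3.31 and APOBEC3G 3.43. ANKRD1, which rose in both lines and more in PC3, had a difference of -1.87. Genes that changed in 1 direction, with the higher change in DU145, had differences of P4HA2 1.11, IFI27 1.34, TNNC1 1.498, COL5A1 1.52 and FOXA2 1.67. Outside these classes, genes lower in DU145 than in PC3 had differences of KRT16 -2.65, CEBPB -1.56, SC5D -1.29, MSMO1 -1.11 and IRAK2 -1.09. Outside these classes, genes higher in DU145 had differences of PKM 1.04, VLDLR 1.49 and ALDOC 2.19. Of the 100, 79 were called with each of the 8 libraries left out in turn and 76 under every alternative tried. The other 24 lost the call under at least 1 alternative, and 0 changed sign.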

How the results depend on the processing

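The 1330 called differences stayed within 1.5 times under every alternative run, 1006 to 1650 with a library left out, although the share higher in DU145 then ran from 27.5% to 51.6%. That holds for the number of called genes, while the genes themselves changed. With a pseudocount of 0.1, 1104 of the 1330 were called again. Leaving out any single library but the first PC3 control kept fewer of the 1330 than any other setting did. The fewest were kept without the first DU145 control. The sizes of the classes were less stable. Opposite change held for 131 genes, but for 61 under upper-quartile scaling, 251 among protein-coding genes alone, 76 without a trend, and 40 to 116 with a library left out. DU145-restricted genes numbered 128, but 79 with a minimum of 5 TPM, and 98 to 419 with a library left out. PC3-restricted genes numbered 600, and 337 to 912 with a library left out. With a replicate block 927 differences were called, 900 of them among the 1330, and 38 genes were of opposite change, 71 DU145-restricted and 399 PC3-restricted. The block's number comes from the titles, and deviations of same-numbered libraries correlated at -0.0415 to 0.0137, so it pairs nothing.

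Among the lists (these alternatives were added after the data were seen), NF-κB cytokine, NF-κB feedback, mucosal, interferon and epithelial counts stayed within 1.5 times of 12, 9, 13, 18 and 21. A pseudocount of 0.1 gave 4 mesenchymal and 3 basal keratin genes, protein-coding genes alone gave 6 proteases and inhibitors, and the replicate block gave 1 ATF4 gene. With a library left out the counts were 4 to 7 mesenchymal, 1 to 6 glycolysis, 1 to 2 ATF4, 2 to 4 cholesterol, 1 to 5 protease and 3 to 5 basal keratin genes. Outside the fits that leave a library out, CEBPB, NANOS3, WFDC2, PDLIM4, FOXA2, TNNC1, CDH11, DDIT3, VLDLR, MMP1, KRT6A and S100A14 lost their calls under at least 1 setting. Of the 1330 called differences 1 changed sign, with a pseudocount of 0.1, and it is not a named gene. TPM hides depth, so how far counting error limits low genes is unknown.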

Other observations

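Globin transcripts, which mark red cells, were present in every library of both lines. HBB stood at 278.6 to 385 TPM, HBA1 at 241 to 313.5 TPM and HBA2 at 305 to 421 TPM over the 8 libraries, levels near those of KRT18. Their changes with TRIB1 did not pass in either line and their differences between the lines were -0.20, -0.23 and -0.26 (adjusted p = 0.578, 0.395 and 0.445). HBA1 and HBA2 are nearly identical, and the source of these transcripts was not tested.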
